A study of Mus musculus with 6 samples.

Results

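Mitochondrial ribosomal protein genes were followed in CD41+ cells grown from the bone marrow of Txnip knockout and wild-type mice. They were chosen by gene symbol alone, as all rows whose symbol starts with Mrpl or Mrps followed by a number. This gave 77 genes among the 24410 symbols of the table, 48 of the large subunit (Mrpl) and 29 of the small subunit (Mrps). The symbol is not a perfect guide to the particle: Mrps18a and Mrps30 encode proteins of the large subunit, Mrps36 encodes a component of the 2-oxoglutarate dehydrogenase complex, and some subunits carry other names.

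The mitochondrial ribosome is a separate translation machine in the mitochondrial matrix. It makes the few subunits of the respiratory chain and ATP synthase that mitochondrial DNA still encodes, while all of its own proteins come from nuclear genes, are made in the cytosol and are imported. Compared with its bacterial ancestor it has lost ribosomal RNA and gained proteins, so that some members have a bacterial counterpart and others do not. Megakaryocytes, the cells that shed platelets, pass mitochondria on to the platelets they release. Txnip, the thioredoxin-interacting protein, is an arrestin-fold protein that binds thioredoxin and restrains glucose uptake.

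The mutant genotype was Txnip -/- (KO 1 to KO 3) and its control was wild type (WT 1 to WT 3), 3 libraries each, all C57BL/6 and aged 5 months per the labels. In both genotypes the marrow was depleted of cells bearing mature lineage markers. It was cultured for 3 days in a serum-free expansion medium to which 10% fetal bovine serum, 100 ng/mL murine stem cell factor (Scf) and 20 ng/mL thrombopoietin (mTpo) were added, and CD41+ cells were then sorted for total RNA. CD41 is the integrin encoded by Itga2b, and the question was how loss of Txnip bears on the making of megakaryocytes and platelets. The labels neither name the knockout allele nor state that each library is a mouse of its own. The p-values therefore speak only of the spread among these 6 samples, part of which may be technical.

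Levels are in FPKM, fragments per kilobase of transcript scaled to the total of mapped fragments. Txnip was listed at 0, 0.04 and 0 FPKM in the KO libraries, against 112, 228 and 143 FPKM in the WT libraries. Depth, estimated from the spacing of low values, was about 14500000 fragments in KO 1, 22700000 in KO 2 and 25900000 in KO 3, and between 19100000 and 20000000 in the WT libraries. The lowest member, Mrpl17, would then rest on about 80.2 fragments per kilobase in KO 1 and 183 in KO 3. Y-linked transcripts were present in libraries 1 and 2 of either genotype and Xist in library 3. KO and WT libraries with the same number deviated from their group means together, over the members only weakly for number 3. A KO library and its WT counterpart of equal number are called a pair. Of the sorted cells' own markers, Itga2b lay between 92.8 and 152 FPKM in KO and 83.2 and 111 FPKM in WT libraries, and Pf4 between 476 and 1545 FPKM in KO and 465 and 1435 FPKM in WT libraries. Tubb1, the beta-tubulin of late megakaryocytes, stayed between 0.34 and 1.47 FPKM in KO and 0.17 and 1.33 FPKM in WT libraries.

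All 77 genes were expressed in every library, none was ever listed at 0, and all passed the filter on low values (at least 1 FPKM in at least 3 libraries), as did 11249 genes in all. Their levels per length spanned a 40.7-fold range of mean FPKM over the 6 libraries, with a median of 35.0. The highest was Mrpl33 at 247 FPKM, a small protein of the large subunit with a bacterial counterpart, and the lowest was Mrpl17 at 6.08 FPKM, a protein near the exit of the peptide tunnel. Means of at least 100 FPKM were reached by 11 genes, 8 of them Mrpl, and 14 genes stayed under 20. Small subunit genes spanned a narrower 12.4-fold range of mean FPKM, from 11.5 for Mrps25 to 143 for Mrps21. Transcripts of the members were short, with a median length of 1288 bases in the GENCODE annotation against 2931 bases over the 10468 tested genes that could be matched.

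**Figure D1:**
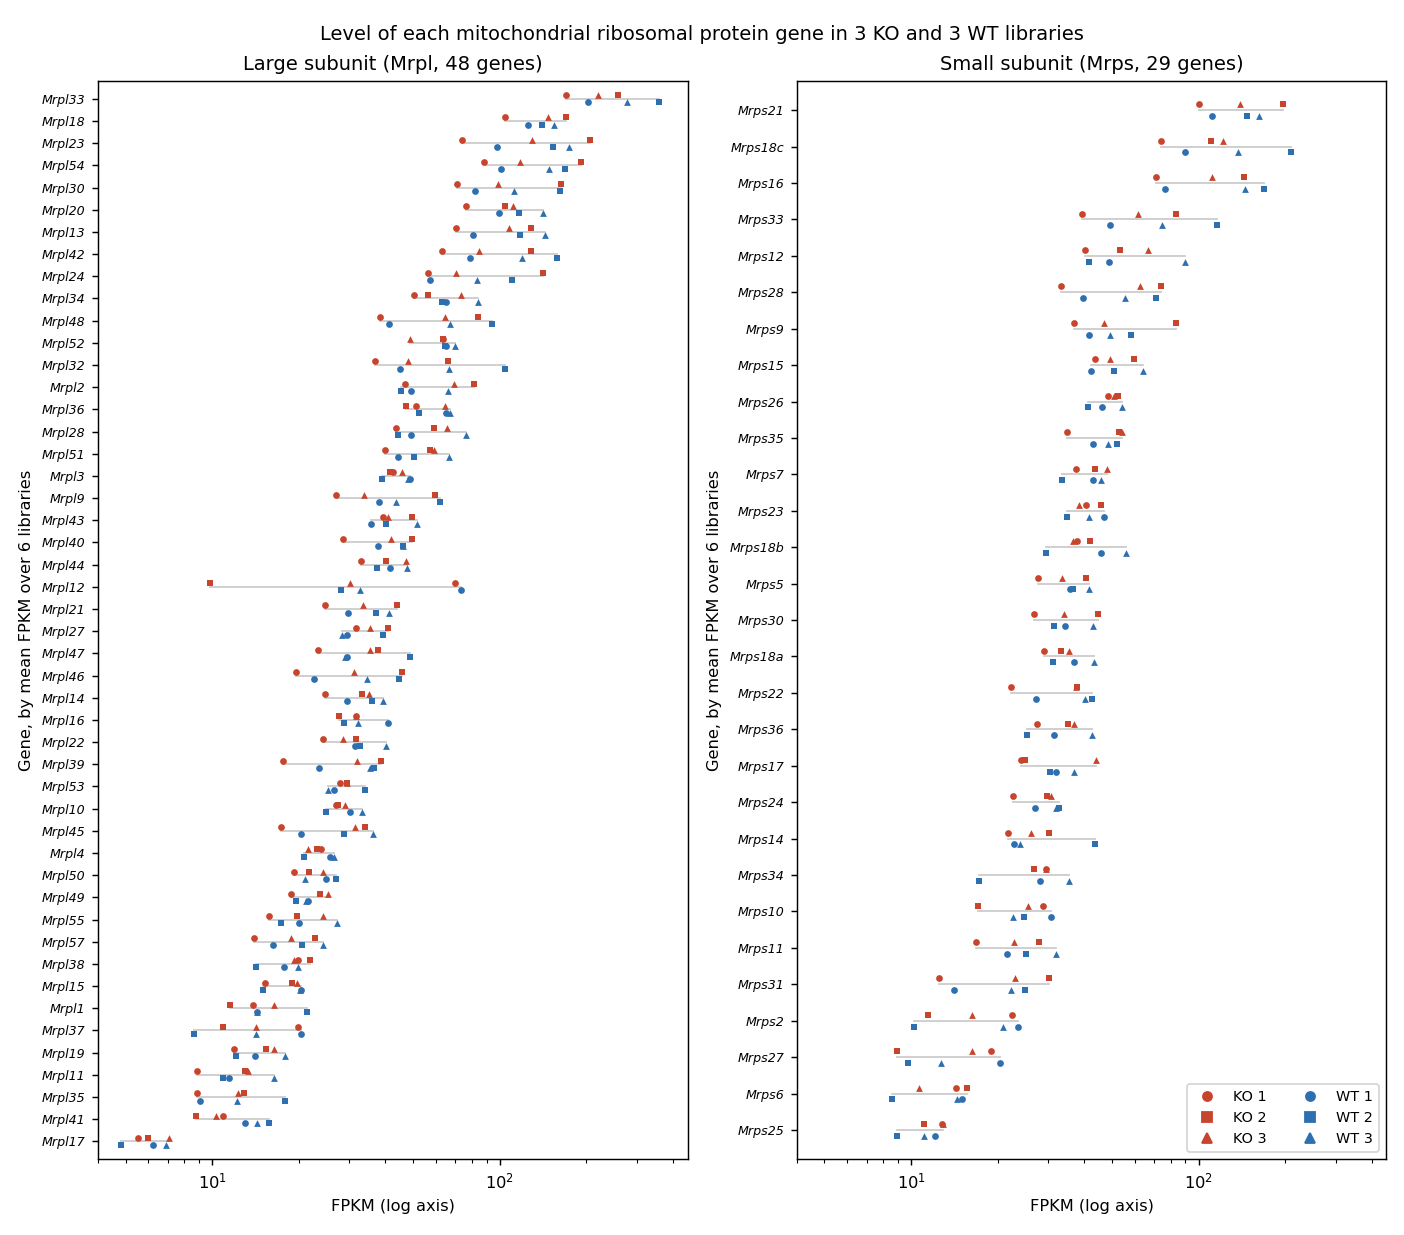
FPKM of each of the 48 large subunit genes (left) and 29 small subunit genes (right) on a log axis, ordered by mean over the 6 libraries, with KO libraries in red above WT libraries in blue, and circles, squares and triangles for libraries 1, 2 and 3. Levels run from 4.80 FPKM (Mrpl17 in WT 2) to 358 FPKM (Mrpl33 in WT 2), and red and blue overlap in all genes but Mrpl41 and Mrpl52.

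The order of the genes by level was much alike in all libraries. Spearman's rho across the 77 genes lay between 0.951 and 0.979 for the 3 KO and WT libraries of the same number. It lay between 0.836 and 0.941 for libraries of the same genotype and between 0.823 and 0.949 for libraries that shared neither. These are descriptions across genes, which share a library and its depth.

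Summed over the large subunit genes, the level was 1859, 2871 and 2412 FPKM in KO 1, KO 2 and KO 3, against 2171, 2870 and 2816 FPKM in WT 1, WT 2 and WT 3. The small subunit genes summed to 996, 1465 and 1321 FPKM in the KO libraries, against 1137, 1458 and 1497 FPKM in the WT libraries. KO 1 was the lowest library for both subunits, and KO and WT overlapped; for the large subunit KO 2 was the highest of all 6 libraries. The means were 2381 ± 507 and 2619 ± 389 FPKM for the large subunit in KO and WT, and 1261 ± 240 and 1364 ± 198 FPKM for the small subunit (SD, n = 3 each). Within pairs, the large subunit sum was 14.4% lower in KO in pair 1, 0.05% higher in pair 2 and 14.3% lower in pair 3. The small subunit sum was 12.4% lower, 0.45% higher and 11.7% lower in KO in the same pairs. The ratio of the large to the small subunit sum stayed between 1.83 and 1.96 in KO and between 1.88 and 1.97 in WT libraries. In bulk samples, fewer cells of a type and less RNA per cell cannot be told apart.

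**Figure D2:**
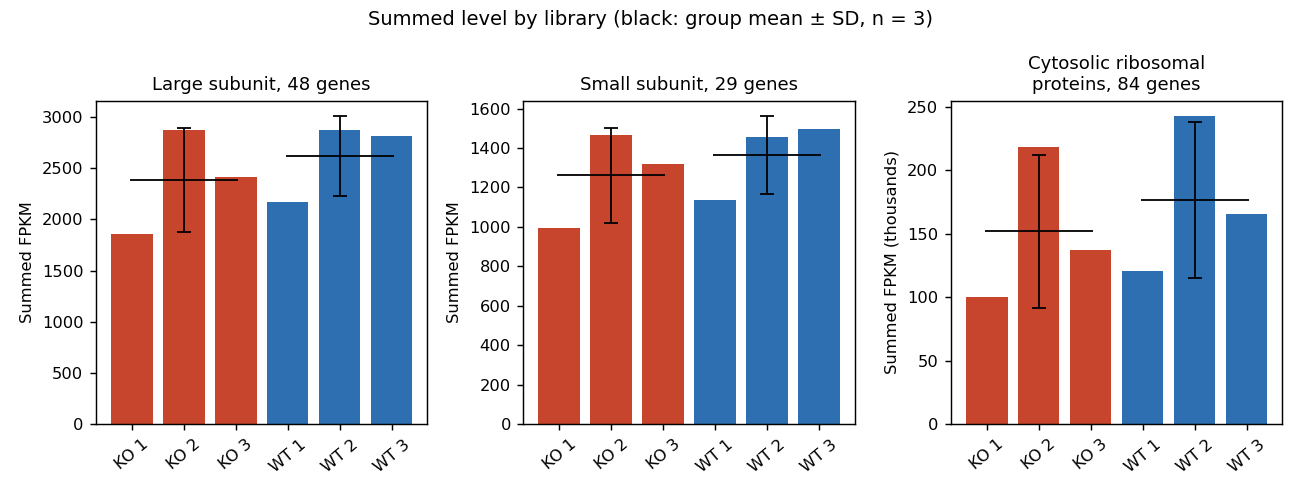
Summed FPKM per library for the large subunit genes, the small subunit genes and the cytosolic ribosomal protein genes, KO libraries in red left of WT libraries in blue, with the group mean ± SD (n = 3) in black. KO 1 is the lowest bar in each panel, and KO 2 reaches 2871 FPKM for the large subunit, level with WT 2 at 2870 FPKM.

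No member was called different between KO and WT. The test was limma on log2(FPKM + 1) across all 11249 genes, called at a Benjamini-Hochberg adjusted p below 0.05. Differences below are KO minus WT on that scale, which understates the change of low genes. All 77 adjusted p-values were 1.00, and 0 members passed beside 2 genes, 0.0178%, of all those tested. With the library number as a block the members' adjusted p lay between 0.683 and 0.996, again with 0 called, beside 3 genes or 0.0267% of all. At an unadjusted limma p below 0.05, 1 member was lower in KO (Mrpl41; 0.267% of all tested genes) and 0 were higher (0.409% of all). With the block, 7 members or 9.09% were lower (Mrpl12, Mrpl32, Mrpl33, Mrpl41, Mrpl42, Mrps18c and Mrps33), beside 2.28% of all tested genes, and 0 were higher, beside 4.66% of all. All 3 KO libraries lay below all 3 WT libraries in 2 members, Mrpl41 and Mrpl52, which is 2.60% of them beside 1.03% of all tested genes, and above in 0, beside 3.32% of all.

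The fitted difference was below 0 in 56 of 77 members (72.7%), against 36.6% of all tested genes: 38 of 48 Mrpl genes (79.2%) and 18 of 29 Mrps genes (62.1%). The median difference was −0.12 for Mrpl and −0.058 for Mrps, where the median of all tested genes was 0.061. In the fit without the block most single differences were smaller than their standard error, with Mrpl41 (−0.48, SE 0.21) among the exceptions. The differences ran from −0.54 to 0.27, with a median standard error of 0.25. These counts and medians rest in part on KO 1: without it, 30 of 77 members lay below 0 and the medians were 0.051 for Mrpl and 0.061 for Mrps, against 0.0096 for all genes. Without WT 3 the Mrps median was 0.036 and the Mrpl median −0.034. They also depend on the scaling. When the libraries were rescaled to a common FPKM sum, the median of all genes moved to 0.22, the medians of Mrpl and Mrps were 0.057 and 0.11, and 19 of 77 members lay below 0. Relative to the median of all genes, the Mrpl median was −0.18 as deposited and −0.16 after that rescaling, and the Mrps median −0.12 and −0.10. The small noncoding RNAs Rpph1 and Rmrp took 20.6%, 11.01% and 15.1% of the FPKM sum in KO 1, KO 2 and KO 3, against 15.6%, 30.4% and 10.7% in WT 1, WT 2 and WT 3; their part in the result was not tested beyond that rescaling and the same without them, where the Mrpl and Mrps medians were −0.0073 and 0.051.

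**Figure D3:**
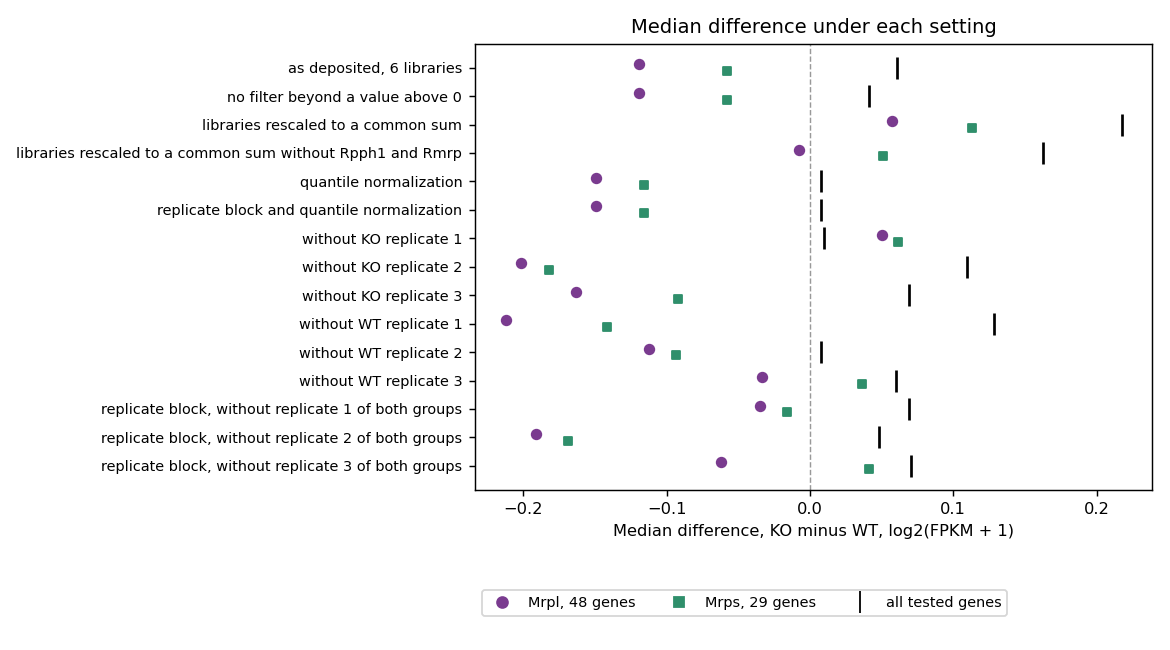
Median KO minus WT difference on the log2(FPKM + 1) scale under each way of processing, for 48 Mrpl genes (circles), 29 Mrps genes (squares) and all tested genes (black bars). The Mrpl median is −0.12 and the Mrps median −0.058 as deposited, and both lie above 0 when the libraries are rescaled to a common sum or KO 1 is left out.

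The pairs differed from each other. In pair 1, 69 of 77 members (89.6%) were lower in KO, beside 44.5% of all tested genes, and the median differences were −0.22 for Mrpl and −0.20 for Mrps. In pair 2 only 28 members (36.4%) were lower, beside 41.1% of all genes, with medians of 0.094 and 0.15. In pair 3, 58 members (75.3%) were lower, beside 42% of all genes, with medians of −0.16 and −0.17. The median of all tested genes was 0.039, 0.091 and 0.051 in the 3 pairs. A total of 19 members (24.7%) were lower in KO in all 3 pairs, beside 8.68% of all tested genes, and 2 (2.60%) were higher in all 3, Mrpl27 and Mrps25, beside 20.4% of all. Mrpl27 and Mrps25 each share sequence with another annotated gene. So do several of the 19, among them Mrpl22, Mrpl32, Mrpl41, Mrpl42 and Mrps33. Exons of Mrpl33, Mrps18c and Mrps24, also of the 19, overlap another gene on the same strand. The 19 were Mrpl9, Mrpl12, Mrpl14, Mrpl16, Mrpl20, Mrpl22, Mrpl32, Mrpl33, Mrpl34, Mrpl36, Mrpl41, Mrpl42, Mrpl48, Mrpl52, Mrps16, Mrps18c, Mrps22, Mrps24 and Mrps33.

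**Figure D4:**
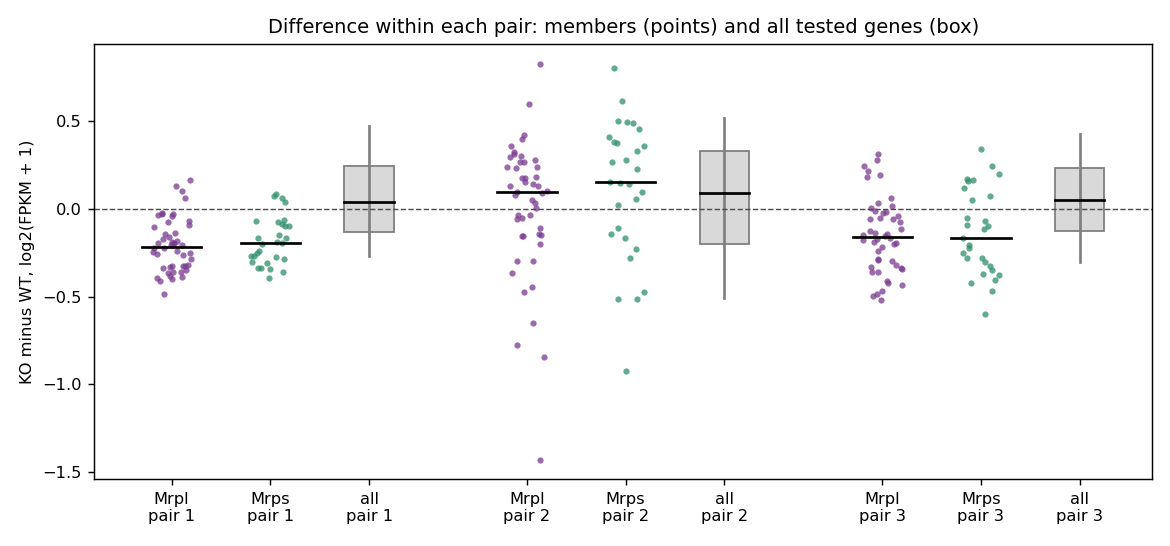
KO minus WT difference within each pair on the log2(FPKM + 1) scale, 1 point per Mrpl gene (purple) or Mrps gene (green) with the median as a bar, beside the quartiles (box) and central spread (line) of all tested genes. Most points lie below 0 in pairs 1 and 3 (69 and 58 of 77) and most lie above 0 in pair 2 (28 of 77 below).

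Between single libraries, the median size of a member's difference was 0.20, 0.26 and 0.20 for KO against WT in pairs 1, 2 and 3, on the log2(FPKM + 1) scale. Between libraries of the same genotype but of different number it lay between 0.24 and 0.50 in KO and between 0.34 and 0.36 in WT. KO 2 against KO 3 was the one such comparison within the range of the pairs. Library 2 minus library 1 had a median over members of 0.41 in KO and 0.16 in WT, against −0.16 and −0.22 for all tested genes. By more than 0.5 in both genotypes, 19 members (24.7%) were higher in library 2 than in library 1, beside 10.4% of all tested genes. Another 4 (5.19%) were lower, namely Mrpl12, Mrpl37, Mrps2 and Mrps27, beside 23.4% of all.

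Mrpl41, a large subunit protein without a bacterial counterpart, had the smallest p of all members in the fit without the block, and the next smallest after Mrpl32 with it. It stood at 10.9, 8.81 and 10.3 FPKM in the KO libraries, against 13.0, 15.8 and 14.3 FPKM in the WT libraries. Every KO library lay below every WT library. The difference was −0.48 (SE 0.21, 95% interval −0.97 to −0.00048), with an unadjusted limma p of 0.0498 and an adjusted p of 1.00. With the block the unadjusted p was 0.0118 and the adjusted p 0.683. Mrpl41 is a low member, and a predicted gene, Gm6434, has a transcript that is 97.9% identical to it over 47.9% of its length, so reads could be shared between them. Rescaled to a common sum the Mrpl41 difference was −0.32, and then 0 members had an unadjusted p below 0.05. Mrpl52, also without a bacterial counterpart, was at 63.6, 63.2 and 48.6 FPKM in KO libraries and 64.9, 64.7 and 70.0 FPKM in WT libraries. Here the groups did not overlap either, but KO 1 and KO 2 lay close under WT 1 and WT 2, and the difference of −0.19 (SE 0.20) rested mainly on KO 3.

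Mrpl32, a protein with a bacterial counterpart that must be cleaved by the m-AAA protease before it joins the large subunit (shown in yeast and mouse), had 36.7, 66.0 and 47.8 FPKM in KO libraries and 45.0, 104 and 66.6 FPKM in WT libraries. Mrpl33 had 169, 257 and 220 FPKM in KO libraries and 202, 358 and 278 FPKM in WT libraries. Mrpl42, which has no bacterial counterpart, had 62.7, 128 and 84.4 FPKM in KO libraries and 78.8, 158 and 120 FPKM in WT libraries. In each of these genes library 2 was the highest and library 1 the lowest in both genotypes, KO was below WT in every pair, and the groups overlapped. The differences were −0.47 (SE 0.33) for Mrpl32, −0.35 (SE 0.28) for Mrpl33 and −0.37 (SE 0.33) for Mrpl42. Once the library number was in the fit, the standard errors were 0.15, 0.15 and 0.14 and the unadjusted limma p-values 0.0092, 0.035 and 0.025, none of which passed adjustment. Mrpl42 shares 96.3% of bases over 64.4% of its transcript with the predicted gene Gm6419, and the exons of Mrpl33 overlap those of another annotated gene, so both single values are uncertain.

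**Figure D5:**
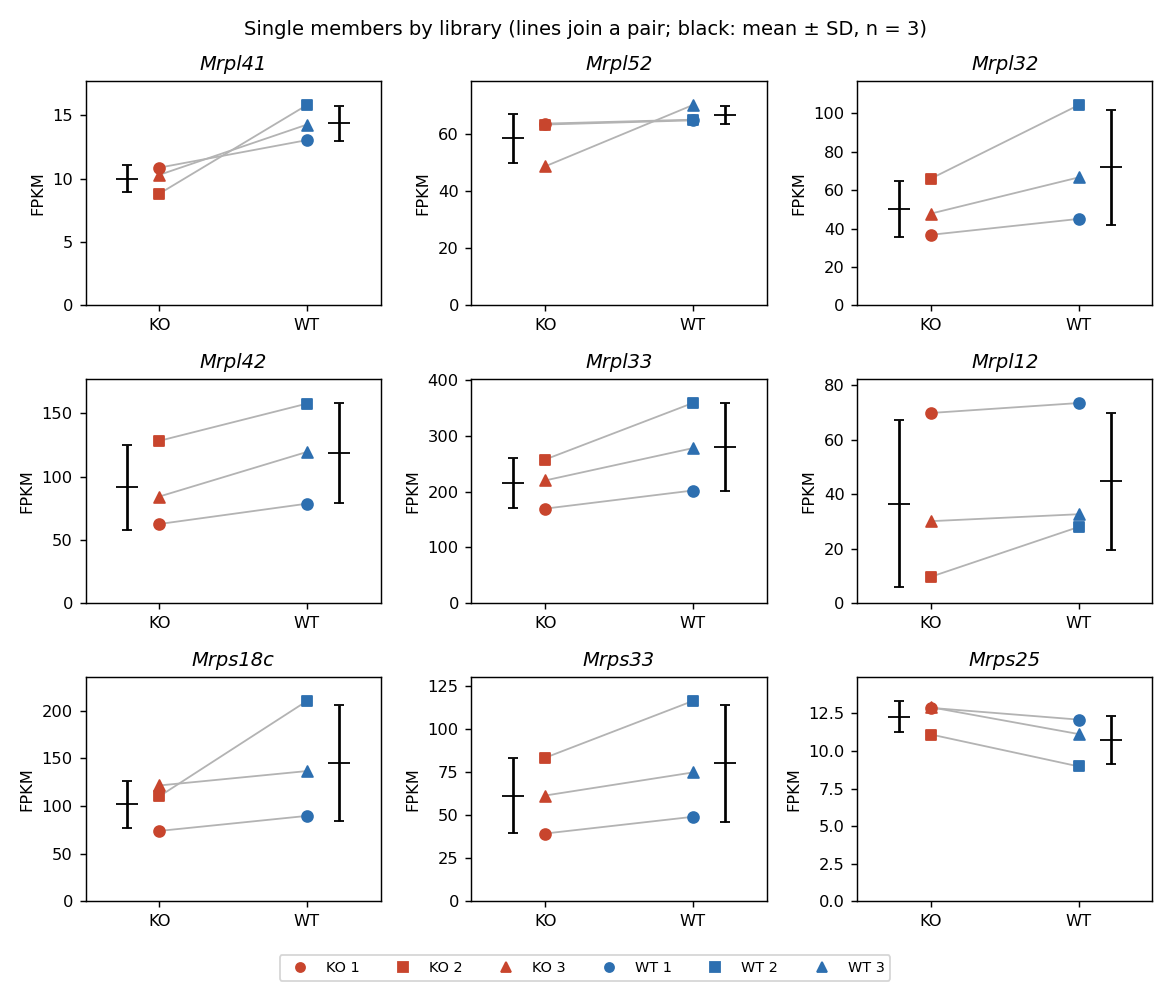
FPKM of 9 members in each library, KO left of WT, with grey lines joining the libraries of a pair and the group mean ± SD (n = 3) in black. Mrpl41 and Mrpl52 have all KO points below all WT points, and the lines of Mrpl32, Mrpl33, Mrpl42, Mrpl12, Mrps18c and Mrps33 slope up from KO to WT in all 3 pairs while those of Mrps25 slope down.

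The promoters of 6 members that were lower in KO in every pair are printed so that their windows can be read against each other. They are Mrpl41 and Mrpl52, whose groups did not overlap, and 4 more with an unadjusted limma p below 0.05 with the block. Mrpl12 and Mrpl33 also had such a p and were lower in every pair, but are not printed. Each window is 300 bases on the strand of the gene, 250 before and 50 after the transcript start, from RefSeq on GRCm38.p6. Capitals mark matches on either strand to 4 short motifs: CCGGAAG, bound by ETS factors such as GABP; GCGCA and GCGC with any base between them, bound by NRF1; AAGATGGCG, bound by YY1; and CACGTG, the E-box bound by Myc with Max and by the Mondo factors with Mlx, which also drive Txnip. Coordinates are given as chromosome, start and end: Mrpl41 chr2:24975049-24975348 (minus strand), Mrpl52 chr14:54426659-54426958 (plus), Mrpl32 chr13:14612988-14613287 (minus), Mrpl42 chr10:95501900-95502199 (minus), Mrps18c chr5:100798509-100798808 (plus) and Mrps33 chr6:39810887-39811186 (minus).
Mrpl41: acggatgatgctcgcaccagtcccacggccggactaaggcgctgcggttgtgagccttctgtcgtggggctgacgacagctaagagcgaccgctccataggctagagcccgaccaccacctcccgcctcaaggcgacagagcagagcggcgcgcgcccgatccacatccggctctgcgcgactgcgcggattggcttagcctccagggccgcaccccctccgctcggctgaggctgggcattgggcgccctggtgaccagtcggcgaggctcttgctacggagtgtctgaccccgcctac
Mrpl52: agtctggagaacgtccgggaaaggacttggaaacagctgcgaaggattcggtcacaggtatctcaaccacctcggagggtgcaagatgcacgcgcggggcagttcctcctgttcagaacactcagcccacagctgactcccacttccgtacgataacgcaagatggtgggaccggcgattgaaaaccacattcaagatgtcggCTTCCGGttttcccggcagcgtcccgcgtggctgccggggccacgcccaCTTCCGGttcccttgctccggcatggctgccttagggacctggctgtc
Mrpl32: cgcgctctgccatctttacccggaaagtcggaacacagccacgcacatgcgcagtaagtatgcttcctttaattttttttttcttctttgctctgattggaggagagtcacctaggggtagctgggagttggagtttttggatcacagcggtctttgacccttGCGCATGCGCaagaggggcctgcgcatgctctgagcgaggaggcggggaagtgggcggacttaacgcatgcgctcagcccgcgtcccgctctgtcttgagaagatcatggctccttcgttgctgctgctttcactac
Mrpl42: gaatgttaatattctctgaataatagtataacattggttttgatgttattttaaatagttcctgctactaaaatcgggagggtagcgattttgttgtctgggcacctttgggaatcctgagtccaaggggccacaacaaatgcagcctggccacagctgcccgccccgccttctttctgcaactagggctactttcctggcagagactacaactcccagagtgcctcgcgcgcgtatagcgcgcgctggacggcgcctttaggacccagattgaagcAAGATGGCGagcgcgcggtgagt
Mrps18c: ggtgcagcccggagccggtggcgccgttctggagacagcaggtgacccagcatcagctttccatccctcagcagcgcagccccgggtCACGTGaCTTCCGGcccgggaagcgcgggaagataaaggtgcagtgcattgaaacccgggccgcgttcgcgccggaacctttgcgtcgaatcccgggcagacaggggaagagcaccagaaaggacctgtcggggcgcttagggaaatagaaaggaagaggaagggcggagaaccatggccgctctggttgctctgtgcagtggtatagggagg
Mrps33: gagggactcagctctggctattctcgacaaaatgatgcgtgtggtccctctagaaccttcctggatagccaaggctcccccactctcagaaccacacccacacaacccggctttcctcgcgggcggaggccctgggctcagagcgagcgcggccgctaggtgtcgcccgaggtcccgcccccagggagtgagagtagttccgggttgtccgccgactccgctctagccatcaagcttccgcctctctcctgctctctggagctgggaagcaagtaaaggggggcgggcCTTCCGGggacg

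The 6 windows differed in their motifs. Mrpl52 held 2 ETS matches, both read on the opposite strand as CTTCCGG, Mrps33 held 1, and Mrps18c held 1 with a single base between it and an E-box. Mrpl32 held an NRF1 match, Mrpl42 a YY1 match, and Mrpl41 held none of the 4. The Mrpl42 match, the Mrps33 match and the later of the Mrpl52 matches lay after the transcript start. Of the windows not printed, that of Mrpl12 held an NRF1 match and that of Mrpl33 an ETS match. A RefSeq promoter was at hand for 68 of the 77 members, with 74 windows in all, since some had several transcript starts. A member was counted when any of its windows held the letters. Mrpl48 and Mrps16, both lower in every pair, held the ETS letters in only 1 of their windows. The ETS letters stood in 25 of these 68 (36.8%), against 21.7% of 8628 tested genes and 9.93% of all 27025 genes with a promoter window. NRF1 letters stood in 13 (19.1%, against 12.3% of tested and 5.19% of all genes) and YY1 letters in 8 (11.8%, against 3.999% and 1.64%). The E-box stood in 5 members (7.35%, against 12.1% and 8.09%), namely Mrpl2, Mrpl20, Mrpl36, Mrpl37 and Mrps18c. Among the 19 members lower in all 3 pairs, 9 held the ETS letters, 4 the NRF1 letters, 3 the YY1 letters and 3 the E-box, against 16, 9, 5 and 2 of the 49 others. A match describes the letters of the window and was not tested as a binding site.

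The stalk of the large subunit, which calls translation factors to the ribosome, is formed by Mrpl12 on a base of Mrpl10 and Mrpl11. Mrpl12, which also binds the mitochondrial RNA polymerase, varied most of all members, 7.50-fold over the 6 libraries. It stood at 69.9, 9.80 and 30.2 FPKM in KO libraries and 73.5, 28.1 and 32.7 FPKM in WT libraries. Library 1 was far above the others in both genotypes, KO 2 was the lowest, and the groups overlapped. Its difference of −0.54 (SE 0.63) was the most negative of all members but turned to 0.17 without KO 2, and pair 2 alone gave −1.43. Mrpl10 and Mrpl11 differed by −0.075 and −0.13, each lower in pairs 1 and 3 and higher in pair 2.

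Proteins that line the exit tunnel or face the inner membrane had a median difference of −0.099, with 4 of 6 below 0. Mrpl22, a tunnel protein with a bacterial counterpart, was at 24.2, 31.7 and 28.6 FPKM in KO libraries and 31.5, 32.5 and 40.3 FPKM in WT libraries, a difference of −0.29 (SE 0.21) with all pairs lower and KO 2 just above WT 1. Mrpl23 spanned 73.6, 205 and 130 FPKM in KO libraries and 98.1, 153 and 174 FPKM in WT libraries; the KO libraries held both the lowest and the highest value, and the difference was −0.14 (SE 0.38). For both genes other annotated transcripts are at least 95% identical over 50% or more of the transcript. Mrpl17 was at 5.53, 5.98 and 7.08 FPKM in KO libraries and 6.20, 4.80 and 6.89 FPKM in WT libraries, a difference of 0.054 (SE 0.24). Mrpl45, which ties the ribosome to the inner membrane, differed by −0.061.

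In the central protuberance, a ridge that contacts transfer RNA, 4 of 5 genes lay below 0. Mrpl18 had 104, 170 and 147 FPKM in KO libraries and 125, 140 and 154 FPKM in WT libraries, a difference of −0.019 (SE 0.24). Mrpl38 was the exception with 19.9, 21.9 and 19.3 FPKM in KO libraries and 17.7, 14.2 and 19.9 FPKM in WT libraries. Its difference was 0.24 (SE 0.21), and only WT 3 reached into the KO range.

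Of the other large subunit genes named by the rule for single genes, Mrpl20, whose bacterial counterpart binds early in assembly, had 76.2, 105 and 111 FPKM in KO libraries and 99.4, 117 and 141 FPKM in WT libraries. KO was lower in every pair, the groups overlapped, and the fitted difference was −0.29 (SE 0.23). Mrpl2, near the site where peptide bonds form, had 46.7, 81.1 and 69.3 FPKM in KO libraries and 49.0, 45.3 and 66.3 FPKM in WT libraries. Its difference of 0.27 (SE 0.26), the most positive of all members, came from pair 2 with 0.83, beside −0.067 and 0.063 in pairs 1 and 3. Mrpl27 had 31.6, 40.7 and 35.3 FPKM in KO libraries and 29.4, 39.3 and 28.2 FPKM in WT libraries, higher in each pair with a fitted difference of 0.15 (SE 0.22); the predicted gene Gm6304 is 98.9% identical to it over 59.1% of its transcript, so its value is uncertain. Mrpl35 had between 8.83 and 12.9 FPKM in KO libraries and between 9.03 and 17.9 FPKM in WT libraries, a difference of −0.15.

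Among small subunit genes, Mrps18c had the smallest p. It is 1 of 3 paralogs, with Mrps18a and Mrps18b, that descend from a single bacterial protein and sit at different places of the mitochondrial ribosome. Mrps18c stood at 73.8, 110 and 121 FPKM in KO libraries and 89.6, 210 and 137 FPKM in WT libraries. KO was lower in each pair, WT 2 stood far above the rest, and the groups overlapped. The difference was −0.46 (SE 0.33) with an unadjusted limma p of 0.205, or 0.0251 with the block, and it was −0.15 without WT 2. Mrps18a was at 29.1, 33.2 and 35.4 FPKM in KO libraries and 37.0, 31.1 and 43.3 FPKM in WT libraries, and Mrps18b at 37.8, 41.9 and 36.5 FPKM in KO libraries and 45.8, 29.6 and 55.8 FPKM in WT libraries. Both paralogs were lower in KO in pairs 1 and 3 and higher in pair 2, with fitted differences of −0.17 (SE 0.21) and −0.13 (SE 0.26). Exons of Mrps18c overlap another annotated gene on the same strand, and those of Mrps18b overlap Gm16279 on the opposite strand, so the estimates are uncertain.

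Mrps33, without a bacterial counterpart, had 39.4, 83.4 and 61.5 FPKM in KO libraries and 49.1, 116 and 74.9 FPKM in WT libraries. Library 1 was the lowest and library 2 the highest in both genotypes, each KO library lay below its WT partner, and the groups overlapped. The difference was −0.36 (SE 0.36), with an unadjusted limma p of 0.356. With the block the standard error was 0.14, the unadjusted limma p 0.0306 and the adjusted p 0.684. Mrps16, with a bacterial counterpart, had 71.4, 144 and 111 FPKM in KO libraries and 76.5, 168 and 144 FPKM in WT libraries, lower in each pair with a difference of −0.23 (SE 0.36) that was 0.040 without KO 1. Mrps25, without a bacterial counterpart, had the opposite sign, at 12.9, 11.1 and 12.9 FPKM in KO libraries and 12.1, 8.97 and 11.1 FPKM in WT libraries. It was higher in KO in each pair, by 0.19 in the fit (SE 0.22), with overlapping groups. Its exons overlap those of Nr2c2 on the opposite strand over 58.2% of its transcript, and without a known strand setting its value is uncertain.

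Of the proteins at the decoding site and the messenger RNA entry, Mrps5, Mrps12 and Mrps24 all lay below 0, with a median of −0.15. Mrps5 had 27.7, 40.6 and 33.4 FPKM in KO libraries and 35.8, 36.5 and 41.5 FPKM in WT libraries, lower in pairs 1 and 3 and higher in pair 2, a difference of −0.17 (SE 0.21). Mrps11 showed the same pattern over pairs with −0.22 (SE 0.25), at 16.9 to 27.8 FPKM in KO libraries and 21.5 to 31.9 FPKM in WT libraries. The highest small subunit gene, Mrps21, had 101, 196 and 139 FPKM in KO libraries and 111, 147 and 162 FPKM in WT libraries, a difference of 0.014 (SE 0.28); the predicted gene Gm6181 is 97.4% identical to it over 54.1% of its transcript, so its value is uncertain. Mrps34, Mrps6 and Mrps27 differed by 0.15 (SE 0.27), 0.11 (SE 0.28) and 0.043 (SE 0.35), and in each the groups overlapped. The values of Mrps34 and Mrps6 are uncertain too. Exons of Mrps34 overlap Mapk8ip3 on the opposite strand and Nme3 on the same strand. Exons of Mrps6 overlap Gm49711 and Slc5a3 on the same strand. Mrps27, a pentatricopeptide repeat protein in human cells, was at 18.9 FPKM in KO 1 and 20.3 FPKM in WT 1 and at 8.95 FPKM in KO 2 and 9.75 FPKM in WT 2.

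Split by ancestry, the median difference was −0.13 for the 28 large subunit genes with a bacterial counterpart (23 below 0) and −0.10 for the 20 without (15 below 0). It was −0.13 for the 18 small subunit genes with a counterpart (14 below 0) and 0.022 for the 11 without (4 below 0). Subunits follow the gene symbol here, so the 18 include Mrps18a and the 11 include Mrps30 and Mrps36. The difference between the classes was not tested. As a description across genes, Spearman's rho of the difference with transcript length was 0.21 over the 77 members and 0.24 over 10468 tested genes, and with GC content 0.17 and 0.30.

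Txnip lies on mouse chromosome 3. Of 5 members on that chromosome the closest was Mrps21, with 11 tested genes between it and Txnip, and Mrpl9 followed with 44 between. Mrpl9 was lower in each pair, at 26.9, 59.3 and 33.7 FPKM in KO libraries and 38.1, 61.8 and 43.6 FPKM in WT libraries (difference −0.30, SE 0.32). The 5 had a median difference of −0.0067.

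Genes that work with the mitochondrial ribosome were listed by role, and none of them was called. Of all 11249 tested genes 4118 lay below 0 and 7131 above, with a median of 0.061. Every KO library lay above every WT library in 3.32% of them, and below in 1.03%. These shares apply to each gene of these lists named below as without overlap, all picked by smallest p in their list. Of 6 mitochondrial ribosome proteins with other symbols, 5 lay below 0 with a median of −0.089; Chchd1 differed by −0.34, Dap3 by 0.20 and Ict1, a peptidyl-tRNA hydrolase of the large subunit, by −0.10. Of 14 translation factors 11 lay above 0 with a median of 0.15. The release factor Mtrf1l differed by 0.35, the elongation factor Tsfm by 0.26, and Mtfmt, which formylates the initiator transfer RNA, was at 7.93, 8.08 and 8.70 FPKM in KO libraries and 7.92, 5.73 and 6.45 FPKM in WT libraries, without overlap but with KO 1 level with WT 1. The translation factors had a median of −0.068, 0.39 and 0.056 in pairs 1, 2 and 3, so that for them too pair 2 was the highest.

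Of 28 assembly factors 19 lay above 0, as did 7131 of all 11249 tested genes. Their median was 0.048, beside 0.061 for all tested genes. Mrm1, which methylates the large ribosomal RNA, was at 7.57, 9.20 and 10.7 FPKM in KO libraries and 6.87, 5.84 and 4.58 FPKM in WT libraries. Each KO library lay above each WT library, and the difference of 0.59 (SE 0.25) had an unadjusted limma p of 0.0427 and an adjusted p of 1.00. Mterf3, which acts in assembly of the large subunit, was at 9.06, 4.80 and 9.37 FPKM in KO libraries and 10.1, 12.6 and 9.83 FPKM in WT libraries (difference −0.48, SE 0.29), below every WT library. Mettl17 differed by 0.42 (SE 0.27).

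Of 22 genes listed as aminoacyl-tRNA synthetases 19 lay above 0, with a median of 0.11. The list also holds Qrsl1, Gatb and Gatc, which encode subunits of an amidotransferase and not synthetases. Vars2 and Sars2 differed by 0.25 and 0.22. Lars2 was at 8.78, 11.7 and 53.0 FPKM in KO libraries and 7.21, 5.37 and 3392 FPKM in WT libraries, so that WT 3 stood alone and the difference of −1.58 had a standard error of 2.08. Of 20 genes of mitochondrial transcription and RNA handling 14 lay below 0, with a median of −0.066. Among them Tfb2m, the transcription initiation factor, was at 14.9, 13.97 and 16.9 FPKM in KO libraries and 18.3, 21.7 and 17.4 FPKM in WT libraries, without overlap (difference −0.31, SE 0.21). Slirp, an RNA-binding protein that stabilises mitochondrial messengers, differed by −0.53 (SE 0.42) and Fastkd5 by −0.27 (SE 0.30).

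Of 13 tested nuclear regulators of mitochondrial genes 6 lay below 0 and 7 above, with a median of 0.0080. Esrra, the estrogen-related receptor alpha, was at 13.2, 12.1 and 13.3 FPKM in KO libraries and 11.7, 6.25 and 8.47 FPKM in WT libraries. Its groups did not overlap, with KO above WT, which held for 3.32% of all tested genes. The Esrra difference of 0.54 (SE 0.26) had an unadjusted limma p of 0.0681, or 0.0094 with the block (adjusted p 0.683). Myc was at 84.9, 23.1 and 58.5 FPKM in KO libraries and 90.5, 34.3 and 64.0 FPKM in WT libraries, highest in library 1 of both genotypes, and differed by −0.26 (SE 0.49). Mycn differed by 0.16 (SE 0.22).

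Respiratory complex I and the cytosolic ribosome were set beside the members as the most similar groups. The 37 complex I genes had a median difference of −0.19, with −0.21, −0.13 and −0.16 in pairs 1, 2 and 3. Of them 18 were lower in all 3 pairs, beside 8.68% of all tested genes. The 81 tested cytosolic ribosomal protein genes had a median of −0.23, with −0.27, −0.15 and −0.27 in the pairs, and 46 were lower in all 3. An unadjusted limma p below 0.05 with the block, in either direction, was reached by 10 of 37 complex I genes and 16 of 81 cytosolic genes. The same held for 7 of 77 members and for 780 of all 11249 tested genes. In pair 2 the medians of both groups lay below 0, where those of Mrpl and Mrps were 0.094 and 0.15; this contrast was not tested. The summed FPKM of the cytosolic ribosomal protein genes was 35.1, 50.3 and 36.8 times that of the members in KO 1, KO 2 and KO 3, and 36.5, 56.1 and 38.5 times in WT 1, WT 2 and WT 3.

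Markers of other blood cells varied between libraries as well. Of all tested genes 36.6% lay below 0. Of 15 tested monocyte and macrophage markers 14 lay above 0, with a median difference of 0.41 and of 0.99, 0.43 and −0.085 in pairs 1, 2 and 3, and their summed level was 1380 to 1913 FPKM in KO and 866 to 2003 FPKM in WT libraries. Of 14 neutrophil and granulocyte markers 9 lay below 0, with a median of −0.060 and of −0.20, −0.40 and 0.38 in the pairs, and they summed to 3973 to 8996 FPKM in KO and 5943 to 7570 FPKM in WT libraries. Of 10 tested mast cell and basophil markers 8 lay below 0, with a median of −0.20 and of −0.18, −0.30 and −0.54 in the pairs, and the list summed to 679 to 1480 FPKM in KO and 1088 to 1629 FPKM in WT libraries. Of 17 tested megakaryocyte markers 8 lay below 0, with a median of 0.011 and of 0.15, 0.028 and −0.028 in the pairs. Their list summed to 885, 2127 and 1208 FPKM in KO and 859, 1990 and 1595 FPKM in WT libraries, lowest in library 1. Pf4 alone gave 476, 1545 and 772 FPKM of these sums in KO and 465, 1435 and 1129 FPKM in WT libraries. The median level of the tested megakaryocyte markers was 17.2, 22.9 and 13.5 FPKM in KO and 14.5, 23.2 and 17.0 FPKM in WT libraries, so that KO 3 was the lowest KO library. Of 10 tested erythroid markers 9 lay below 0, with a median of −0.27 and of −0.18, −0.46 and −0.23 in the pairs. The erythroid list summed to 223 to 348 FPKM in KO and 267 to 441 FPKM in WT libraries, with Hba-a2 listed at 0 and Alas2 and Slc4a1 under 1 FPKM in all. T, B and NK cell markers summed to 85.0 to 112 FPKM in KO and 103 to 125 FPKM in WT libraries; 9 of these 12 stayed under 1 FPKM, Cd3e was listed at 0 in all, and most of the sum was Nkg7. The part of these cell types in the members' differences was not tested.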

How the data were processed

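RNA-seq values came from 1 table of FPKM per gene symbol for 3 KO and 3 WT libraries, as the authors deposited them. Per the submitters' processing notes, FastQC, Trimmomatic 0.39, STAR 2.7.0a and RSEM 1.2.31 were used with the mouse build mm9; not given in the sources used here are which step each tool served, the strand setting and the annotation. Because RSEM estimates how reads are shared among alike transcripts, genes with near copies influence each other. Of 24410 symbols, 7372 were listed at 0 in every library, and no transcripts encoded by mitochondrial DNA were listed. Depth was estimated from the spacing of low FPKM of genes with a single GENCODE M21 transcript, on GRCm38 and not mm9, and is approximate; no counting intervals were computed.

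Groups came from the sample titles. KO was compared with WT by limma 3.58.1 in R 4.3.3 (lmFit, eBayes with a trend, two-sided) on log2(FPKM + 1) over the 11249 genes that reached 1 FPKM in 3 or more libraries. P-values were adjusted by Benjamini-Hochberg over all of these genes, and 0.05 was the threshold. The fit was also run on simulated data with independent noise and with changes larger than those fitted for any member. That run cannot show how well differences of the members' size are found. A second fit had the library number as a block. The numbers were taken to pair the samples because same-numbered KO and WT libraries deviated together from their group means (Pearson's r across genes of 0.81, 0.59 and 0.38 for numbers 1, 2 and 3). Over the members alone r was 0.88, 0.63 and 0.16. The value for number 3 lay below the 0.19 of KO 2 with WT 3. The meaning of a number is not given by the labels. The members, the gene lists and the motifs were chosen with earlier results of these data known. Named single genes were, per subunit, the 6 of smallest p, the 3 of highest and of lowest mean FPKM, and the 3 of most positive and of most negative difference among members with a mean of at least 5 FPKM; per list the 3 of smallest p; and the Mrps18 paralogs, Txnip, Rpph1 and Rmrp. Mrpl52, Mrpl9, Mrpl10, Mrpl11, Mrpl37, Mrpl45, Mrps2, Mrps12 and Mrps24 were added after their values were seen. Transcripts were compared by sequence with GENCODE M21, where 10 members shared at least 95% identical sequence with another gene over 50% of the transcript, by a copy elsewhere or by overlap, and exons of 29 overlapped another gene, 23 of them only on the opposite strand. Promoters came from RefSeq on GRCm38.p6, matched by symbol. Alternatives were another pseudocount, no filter, 3 other scalings, no trend, the block, and each library or pair left out.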

Additional observations from a re-analysis of the deposited data

How the results depend on the processing

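The number of members called stayed at 0 under all 17 alternatives, with a smallest adjusted p over members of 0.0810 (limma, block without pair 3). Over all genes, the count of calls was 1 without the filter, and 36, 142 and 118 in the fits with the replicate block without pair 1, 2 and 3, against 2 in all 6 libraries, 3 with the block and 1 to 3 when single libraries were left out. Leaving out single libraries gave a Mrpl median of −0.21 to 0.051 and 30 to 61 of 77 members below 0; rescaling to a common sum gave 0.057 and 19. The replicate block left the members' calls at 0 and kept every fitted difference, since the pairs are complete. Signs of named genes that changed were as follows; the causes were not tested. Rescaled to a common sum, the difference was 0.16 for Mrpl18, 0.039 for Mrpl23, 0.015 for Mrpl35, 0.0012 for Mrps5, 0.045 for Mrps18b and 0.068 for Ict1; without Rpph1 and Rmrp in that sum it was 0.093 for Mrpl18 and 0.0071 for Ict1. Quantile normalization gave 0.034 for Mrpl18, −0.054 for Mrpl17 and −0.023 for Mrps27, with or without the block. In the replicate block, leaving out pair 1 gave 0.10 for Mrpl18. Leaving out pair 2 gave −0.053 for Mrpl17, −0.0022 for Mrpl2, −0.18 for Mrps21, −0.24 for Mrps6, −0.090 for Mrps34 and −0.018 for Sars2. Leaving out pair 3 gave 0.0083 for Mrpl18, 0.0045 for Mrpl23, −0.10 for Mrps27, 0.11 for Mrps18b, 0.075 for Ict1 and 0.62 for Lars2. Over single libraries left out, the ranges that crossed 0 were −0.68 to 0.049 for Chchd1, −0.054 to 0.39 for Dap3, −0.22 to 0.11 for Ict1, −3.15 to 1.38 for Lars2, −1.19 to 0.17 for Mrpl12, −0.072 to 0.15 for Mrpl17, −0.17 to 0.18 for Mrpl18, −0.49 to 0.24 for Mrpl23, −0.37 to 0.087 for Mrpl35, −0.57 to 0.040 for Mrps16, −0.38 to 0.070 for Mrps18b, −0.23 to 0.25 for Mrps21, −0.18 to 0.34 for Mrps27, −0.13 to 0.37 for Mrps34, −0.13 to 0.26 for Mrps6 and −0.65 to 0.27 for Myc. Depth is known only approximately, and with 3 libraries a group the median 95% interval of a member's difference was ± 0.58 in the fit without the block.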
